A study of Mus musculus with 8 samples.

Results

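The genes examined here encode 10 surface proteins by which muscle stem cells are recognised or sorted: the proteoglycans Sdc3 and Sdc4, the sialomucin Cd34, the immunoglobulin-type adhesion proteins Vcam1 and Ncam1, the integrin subunits Itga7 and Itgb1, the chemokine receptor Cxcr4, the cadherin Cdh15 and the tetraspanin Cd82. They were taken as a named list, drawn up with earlier results of these data known, and were found by symbol among the 27554 genes of the count table. All 10 passed the filter on low counts, which kept 11730 genes. Polyadenylated RNA had been sequenced from muscle stem cells sorted from hindlimb muscle. There were 4 groups of 2 libraries, female Myf5High, female Myf5Low, male Myf5High and male Myf5Low, and each library came from a pool of 4 mice. Every mouse, in all 4 groups, was on the C57BL/6NTac background and carried both reporter alleles, Pax7tm3955(T2A-ZsGreen)Tac, in which ZsGreen reports Pax7, and Myf5tm3956(T2A-E2Crimson)Tac, in which E2Crimson reports Myf5. Myf5High and Myf5Low were the Pax7-positive cells at the high and the low end of E2Crimson fluorescence, so the fractions were set by a reporter protein and not by the Myf5 transcript. There was no unsorted or untreated group, and the age of the mice was not given in the labels.

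Muscle stem cells lie between the muscle fibre and the basal lamina that surrounds it. They hold to the fibre through cadherins and to the lamina through integrins, and syndecans present growth factors to their receptors at the same surface. Because these proteins stand on the outside of the cell, antibodies against them are used to isolate the cells, usually with CD34, VCAM1 or integrin alpha 7 as positive markers and with markers of blood and vessel cells for exclusion. In this series the sort used the reporters, so the transcripts of the antibody targets could be read without having chosen the cells.

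Gene levels are in normalised CPM: read counts divided by the total of the library, corrected by its TMM factor and expressed on one scale for all libraries. Fold changes, their standard errors (SE), 95% intervals and p-values come from edgeR's quasi-likelihood test on all 8 libraries, adjusted over the 11730 genes by the Benjamini-Hochberg method, and a gene with an adjusted p under 0.05 is described as called. Gene totals were 3140361 to 4238427 counts per library, and 3 counts corresponded to 0.708 to 0.955 CPM of these totals, before the TMM correction. These totals include Gm42418, a transcript that holds ribosomal RNA reads, which took 20.1% to 28.8% of them per library. Every one of the 10 genes had at least 32 counts in every library. Pax7 had 1001 to 1498 CPM across the libraries. Myf5 had 39.5 to 128 CPM in Myf5High and 25 to 49.9 CPM in Myf5Low, a fitted log2 ratio of 1.19 (edgeR adjusted p = 0.0284), and the ranges overlapped in males. Of the 8 leave-one-out fits 3 called Myf5. It was not called without either female Myf5High library, female Myf5Low replicate 1, male Myf5High replicate 1 or male Myf5Low replicate 2, with edgeR adjusted p of 0.0566 to 0.127. Myog, the gene of myogenin that marks committed cells, had 0 to 1.27 CPM in Myf5High and 93.7 to 533 CPM in Myf5Low.

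Several of the 10 proteins are also made by other cells of muscle, so marker lists of those cells were summed in each library. The endothelial list of 9 genes summed to 320 to 645 CPM in Myf5High and 456 to 1040 CPM in Myf5Low, and to 320 to 563 CPM in females and 582 to 1040 CPM in males. The immune list of 9 genes summed to 16.1 to 43.3 CPM in Myf5High and 49.2 to 87.7 CPM in Myf5Low, with Ptprc, which encodes CD45, at 0 to 6.14 CPM. The fibro-adipogenic list of 8 genes summed to 1100 to 1881 CPM in Myf5High and 846 to 1009 CPM in Myf5Low, mostly through Dpt, Gsn and Col3a1, while its defining receptor gene Pdgfra stayed at 0 to 4.33 CPM. The mural list of 7 genes summed to 333 to 486 CPM in Myf5High and 356 to 740 CPM in Myf5Low, and the glial list of 6 genes to 47.6 to 108 and 61.3 to 156 CPM. The commitment list of 10 genes summed to 88.9 to 163 CPM in 3 Myf5High libraries, to 723 CPM in male Myf5High replicate 1 and to 304 to 870 CPM in Myf5Low. The embryonic myosin gene Myh3 had 175 CPM in male Myf5High replicate 1, 100 CPM in male Myf5Low replicate 2 and at most 6.12 CPM in the other libraries. The 10 early response genes of tissue dissociation summed to 20521 to 34700 CPM in Myf5High and 19389 to 26092 CPM in Myf5Low. All 10 were on the higher side in Myf5High, with a median log2 fold change of 0.35 and 0 called by edgeR, and their part in the values below was not tested. In sorted bulk samples such as these, fewer cells of a type and less RNA per cell cannot be told apart.

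**Figure D1:**
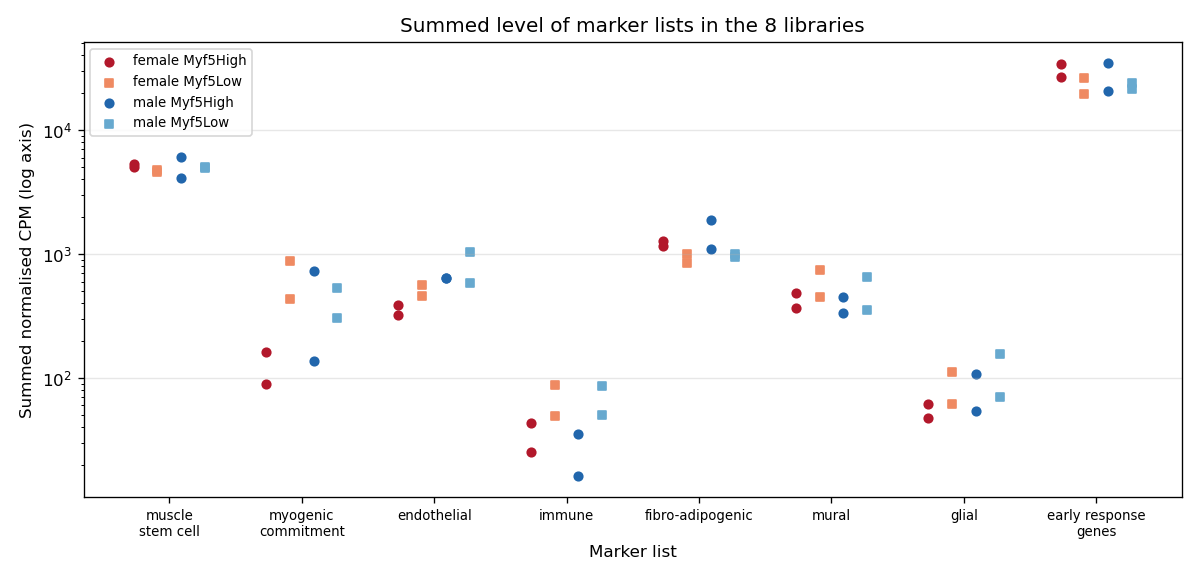
Summed normalised CPM of each marker list on a log axis, 1 point per library, for female and male Myf5High (circles) and Myf5Low (squares). The muscle stem cell list of 5 genes lies between 4119 and 6089 CPM. Most of this sum is Chodl, with means of 3595 CPM in Myf5High and 3348 CPM in Myf5Low. Of the 5 genes 4 are on the higher side in Myf5High and 1, Myod1, is on the lower (log2 fold change -0.97). The immune list lies far lower, at 16.1 to 87.7 CPM, and the immune sums of Myf5High and Myf5Low do not overlap.

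Set per kilobase of merged exons, 8 of the 10 genes lay above 95% of the 11730 genes tested. Cd82 had the highest mean, 175 ± 27.9 CPM per kb (SD, n = 8), followed by Sdc4 at 171 ± 45.6, Cd34 at 109 ± 30.5 and Cdh15 at 104 ± 18.7 CPM per kb. Ncam1 came next with 84.9 ± 24.6, then Itgb1 with 82.3 ± 11, Vcam1 with 73.9 ± 9.67 and Cxcr4 with 69 ± 26.1 CPM per kb. The ranges over the 8 libraries overlapped between each of these genes and the next in the order. Within libraries, Sdc4 was above Cd34 and Cdh15 above Ncam1 in 8 of 8. Cd82 was above Sdc4 and Cd34 above Cdh15 in 5 of 8, Itgb1 was above Vcam1 in 6 of 8, and Ncam1 above Itgb1 and Vcam1 above Cxcr4 in 4 of 8. Itga7 lay apart at 15.7 ± 3.94 CPM per kb and Sdc3 at 4.16 ± 1.99 CPM per kb, and in all 8 libraries Cxcr4 was above Itga7 and Itga7 above Sdc3. Sdc3 was thus in the middle of all genes, above 49.6% of them. Per length, Sdc4 was 21.4 to 109 times as high as Sdc3 in the single libraries. Together the 10 genes took 0.345% to 0.504% of gene counts.

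Most of the 10 genes varied less between libraries than the median of all tested genes, and Cxcr4 and Sdc3 varied more. That median covers genes of all levels, while 8 of the 10 lay above 95% of tested genes in level per kb. A comparison with genes of like level was not made. The SD of log2 CPM over the 8 libraries was below the median of all tested genes (0.511) for 8 of the 10. It was lowest for Vcam1 (0.194), Itgb1 (0.195) and Cd82 (0.222), with fewer than 8% of tested genes below each, and highest for Cxcr4 (0.566) and Sdc3 (0.788). The highest library was 1.56 times the lowest for Cd82 and 4.47 times the lowest for Sdc3.

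**Figure D2:**
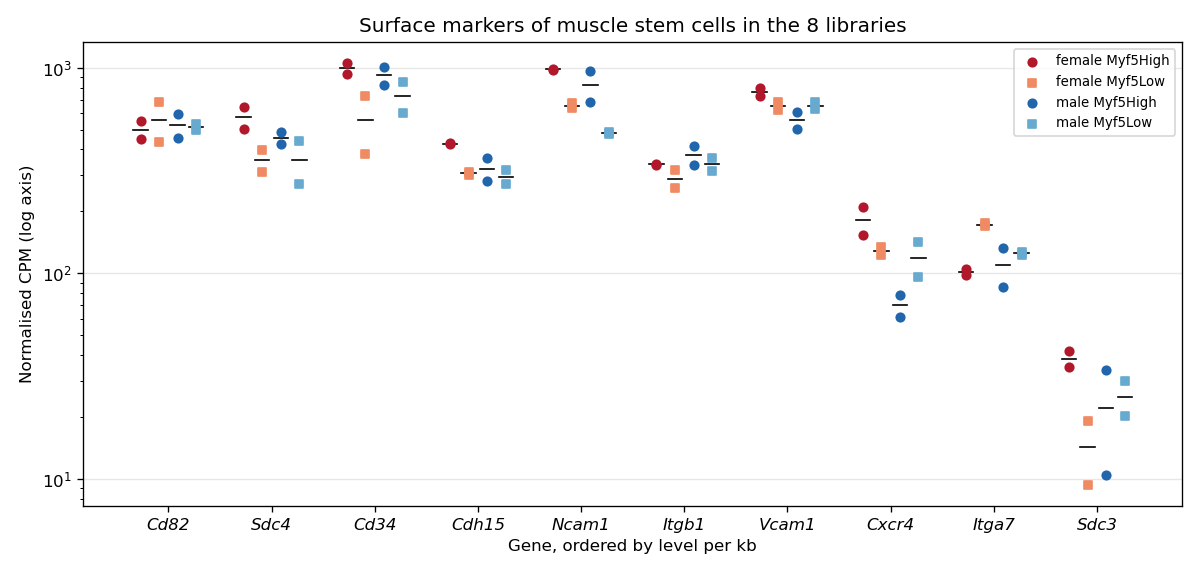
Normalised CPM of the 10 genes on a log axis, 1 point per library, with circles for Myf5High and squares for Myf5Low and a bar at the mean of the 2 libraries of a group. Genes stand in the order of their level per kb. Ncam1 is the gene whose Myf5High points, at 684 to 990 CPM, all lie above its Myf5Low points, at 477 to 670 CPM.

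The comparison of Myf5High with Myf5Low asked whether the surface markers follow the Myf5 reporter. By edgeR's test 0 of the 10 genes were called, where 1.2% of all tested genes were. At an unadjusted p under 0.05 there were 4 of the 10, Ncam1, Cd34, Sdc4 and Itga7, against 9.36% of all tested genes, and DESeq2 called 1, Ncam1, where it called 1.99% of all tested genes. The median log2 fold change of the 10 was 0.25, beside -0.018 over all tested genes. The fractions were fully apart for 1 of the 10, Ncam1, against 4.58% of all tested genes.

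Ncam1 (chromosome 9, 49502136 to 49798925, GRCm38) encodes NCAM1 or CD56, a homophilic adhesion protein found on muscle stem cells and on young muscle fibres. In females it had 977 and 990 CPM in Myf5High and 636 and 670 CPM in Myf5Low. In males it had 961 and 684 CPM in Myf5High and 489 and 477 CPM in Myf5Low. All 4 Myf5High libraries were above all 4 Myf5Low libraries, and male Myf5High replicate 2 was the low one of its fraction. Ncam1 averaged 903 ± 147 CPM over the Myf5High libraries against 568 ± 99.3 CPM over the Myf5Low ones (SD, n = 4 each). The fitted log2 ratio was 0.68 (SE 0.174, 95% interval 0.32 to 1.04) with an edgeR adjusted p of 0.0702, short of the threshold. It was 0.59 in females and 0.77 in males (edgeR adjusted p 0.561 and 0.393). Ncam1 was called by DESeq2 (adjusted p 0.00216), with edgeR and no filter on low counts (adjusted p 0.027), in the additive model of sex and fraction (edgeR adjusted p 0.0497) and without male Myf5High replicate 2 (log2 fold change 0.79, edgeR adjusted p 0.0155). The remaining 7 leave-one-out fits did not call it (edgeR adjusted p up to 0.279), nor did the fits with RLE scaling or with a filter at a mean of 50 counts (edgeR adjusted p 0.072 and 0.0739). Over both sexes the log2 ratio stayed between 0.55 and 0.79 in the leave-one-out fits. Within males it ran from 0.50 to 0.99. Glial cells also make NCAM1, and the glial sums given above overlapped between the fractions, with 5 of 5 tested genes on the lower side in Myf5High and 0 called. Of the commitment list 8 of 10 genes were on the lower side in Myf5High and 2 on the higher, with a median log2 fold change of -1.74. Male Myf5High replicate 1, the library with the high commitment sum, was also the higher male Myf5High library for Ncam1. In that library Myog and Mymk had 0 counts, and Myh3 had 175 CPM. Without this library the male value of Ncam1 was 0.50. The part of glial and committed cells was not tested. Exons of Ncam1 share 4.81% of their bases with the antisense gene Gm11149, and the strand setting of the counting is not given in the sources used here. Between females and males Ncam1 had a log2 difference of 0.35 (SE 0.173, edgeR adjusted p 0.386).

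The 3 genes nearest to Ncam1 across the 8 libraries were Vim, which encodes vimentin, Ltbp4 and Pafah1b2. Nearness was the root mean square difference of centred log2 CPM, which was 0.092, 0.10 and 0.13 for these genes and had a median of 0.63 over all tested genes. Because they were picked as the nearest of all tested genes, they lie under that median by choice. The same holds for the nearest genes of Cd34, Sdc3 and Cxcr4 given below, and a shared regulation was not tested.

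Vcam1 (chromosome 3, 116109949 to 116129688) encodes the adhesion protein VCAM1, a widely used positive marker of quiescent muscle stem cells and a ligand of integrin alpha 4 beta 1. Female libraries had 726 and 792 CPM in Myf5High and 683 and 624 CPM in Myf5Low. Male libraries had 505 and 612 CPM in Myf5High and 679 and 627 CPM in Myf5Low. The fractions overlapped, with means of 659 ± 127 and 653 ± 32 CPM (SD, n = 4 each). Between the fractions the log2 fold change was -0.0042 (SE 0.168), and its 95% interval, -0.36 to 0.35, left out changes of 1.28-fold or more in the mean over both sexes. The estimates within the sexes had opposite signs, 0.22 in females (95% interval -0.28 to 0.72) and -0.23 in males (95% interval -0.72 to 0.27), and larger changes are not left out there. The leave-one-out fits gave 0.14 to 0.28 in females and -0.37 to -0.093 in males. Between the sexes the log2 difference was 0.22 (SE 0.168, edgeR adjusted p 0.599). Itga4, which encodes the alpha subunit of its receptor, had 0 to 8 counts per library and was not tested.

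Cd34 (chromosome 1, 194938819 to 194961279) encodes a sialomucin that is a classical marker of quiescent muscle stem cells and is also found on endothelial and fibro-adipogenic cells. Female libraries had 1048 and 935 CPM in Myf5High and 732 and 381 CPM in Myf5Low. Male libraries had 821 and 1012 CPM in Myf5High and 852 and 603 CPM in Myf5Low. The fractions overlapped only through male replicate 1, in which Myf5Low was above Myf5High. The means were 954 ± 100 and 642 ± 202 CPM (SD, n = 4 each), and the log2 fold change was 0.58 (SE 0.209, 95% interval 0.14 to 1.02, edgeR adjusted p 0.295). This log2 fold change was 0.38 without female Myf5Low replicate 2 and 0.85 without female Myf5Low replicate 1. The fibro-adipogenic sums were also higher in Myf5High, with 5 of 7 tested genes on that side and Dpt called (log2 fold change 1.05, edgeR adjusted p 0.00327), and 8 of 9 endothelial genes were on the lower side with 0 called. Their part in this value was not tested. Between the sexes the log2 difference was -0.14 (SE 0.209, edgeR adjusted p 0.826). Nearest to Cd34 across the libraries was Pdpn, which encodes the mucin-type surface protein podoplanin, at a root mean square difference of 0.15, followed by Trmt2b and Rab3gap2 at 0.18 each, with a median of 0.67 over all tested genes.

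Syndecans are transmembrane heparan sulfate proteoglycans that bind growth factors, and syndecan 3 and syndecan 4 are the family members by which muscle stem cells are known. Sdc4 (chromosome 2, 164424247 to 164443887) had 646 and 501 CPM in female Myf5High and 399 and 312 CPM in female Myf5Low. In males it had 423 and 487 CPM in Myf5High and 439 and 272 CPM in Myf5Low. As for Cd34, the overlap of the fractions came from male replicate 1. Sdc4 had a log2 fold change of 0.52 (SE 0.193, 95% interval 0.12 to 0.93, edgeR adjusted p 0.325), and between the sexes the difference was 0.17 (SE 0.193, edgeR adjusted p 0.76). Leaving out single libraries gave 0.37 to 0.72 between the fractions and 0.013 to 0.35 between the sexes.

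Sdc3 (chromosome 4, 130792537 to 130826319) was the least abundant and the most variable of the 10. Female libraries had 41.7 and 34.9 CPM in Myf5High and 9.34 and 19.1 CPM in Myf5Low, with no overlap. Male libraries had 33.9 and 10.5 CPM in Myf5High and 20.2 and 29.9 CPM in Myf5Low, so that the male Myf5High libraries lay on either side of the male Myf5Low ones. Over both sexes Myf5High and Myf5Low differed by 0.63 on the log2 scale (SE 0.351, edgeR adjusted p 0.642), with 1.42 in females (SE 0.504, edgeR adjusted p 0.416) and -0.16 in males (SE 0.493, edgeR adjusted p 1). Without male Myf5High replicate 1 the value over both sexes was 0.089, and the leave-one-out fits reached 0.93. Within females it was 1.00 without female Myf5Low replicate 1 and 2.02 without female Myf5Low replicate 2. Within males it was -1.24 without male Myf5High replicate 1 and turned direction without male Myf5High replicate 2 (0.43) or male Myf5Low replicate 2 (0.15). With 32 to 141 counts per library its intervals were the widest of the 10, from -0.11 to 1.37 between the fractions and from -0.75 to 0.71 between the sexes. Exons of Sdc3 share 6.93% of their bases with the antisense gene Gm26716. Its nearest genes were Alkbh6, Dnajb11 and Zscan20, at root mean square differences of 0.24, 0.26 and 0.29, with a median of 0.88 over all tested genes.

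Integrin alpha 7 beta 1 is the laminin receptor of skeletal muscle and its stem cells, and beta 1 also pairs with many further alpha subunits. Itga7 (chromosome 10, 128933818 to 128958282) had 98.3 and 105 CPM in female Myf5High and 170 and 175 CPM in female Myf5Low. In males it had 133 and 86.1 CPM in Myf5High and 127 and 123 CPM in Myf5Low. The female fractions were apart and the male ones overlapped. Of the 4 genes with an unadjusted p under 0.05 it was the one with the lower level in Myf5High. Its log2 fold change was -0.47 (SE 0.191, 95% interval -0.87 to -0.072, edgeR adjusted p 0.393), with -0.76 in females and -0.19 in males (edgeR adjusted p 0.42 and 0.99). The male value was 0.087 without male Myf5High replicate 2 and -0.54 without male Myf5High replicate 1. Smooth muscle and mural cells also make integrin alpha 7. The mural sums given above overlapped between the fractions, but 5 of the 7 mural genes were on the lower side in Myf5High, with a median log2 fold change of -0.97. Acta2, the smooth muscle actin gene, was called lower in Myf5High, at 40.1 to 68.5 CPM against 139 to 335 CPM without overlap (log2 fold change -1.73, edgeR adjusted p 0.000389). Notch3 was on the opposite side, with means of 252 and 166 CPM (log2 fold change 0.62, edgeR adjusted p 0.32). Of the commitment list 8 of 10 genes were also on the lower side in Myf5High and 2 on the higher, with a median log2 fold change of -1.74. The part of mural and of committed cells in the value of Itga7 was not tested.

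Itgb1 (chromosome 8, 128685654 to 128733200) had 337 and 341 CPM in female Myf5High and 259 and 317 CPM in female Myf5Low. In males it had 417 and 338 CPM in Myf5High and 364 and 313 CPM in Myf5Low. Male Myf5High replicate 1 was the highest library, and within each number and sex Myf5High was above Myf5Low, in 4 of 4 pairs. Myf5High was above Myf5Low in all 4 pairs for 2 of the 10 genes, Itgb1 and Ncam1, and for 7.51% of all tested genes. The log2 fold change of Itgb1 was 0.20 (SE 0.173, 95% interval -0.17 to 0.56, edgeR adjusted p 0.85). It ran from 0.12 to 0.27 in the leave-one-out fits. Per length, Itgb1 was 6.2 to 7.79 times Itga7 in the Myf5High libraries and 3.02 to 5.67 times Itga7 in the Myf5Low libraries. These ranges did not overlap, but the ratio was chosen after the values had been seen and was not tested.

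Cdh15 (chromosome 8, 122847966 to 122867397) encodes M-cadherin, the muscle cadherin that joins the stem cell to the fibre. Female libraries had 429 and 423 CPM in Myf5High and 311 and 302 CPM in Myf5Low. Male libraries had 364 and 282 CPM in Myf5High and 273 and 318 CPM in Myf5Low. The female fractions were apart and the male ones overlapped. Cdh15 had a log2 fold change of 0.30 (SE 0.171, 95% interval -0.058 to 0.66, edgeR adjusted p 0.659), and the difference between the sexes was 0.23 (SE 0.171, edgeR adjusted p 0.599).

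Cd82 (chromosome 2, 93419111 to 93463140) encodes a tetraspanin, a protein that spans the membrane several times and organises integrins and receptors beside it. Female libraries had 448 and 552 CPM in Myf5High and 680 and 437 CPM in Myf5Low. Male libraries had 457 and 598 CPM in Myf5High and 530 and 498 CPM in Myf5Low. The groups overlapped throughout. Between the fractions Cd82 differed by -0.061 on the log2 scale (SE 0.188), with a 95% interval of -0.46 to 0.33, and the difference between the sexes was 0.022 (SE 0.188), with an interval of -0.37 to 0.42.

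**Figure D3:**
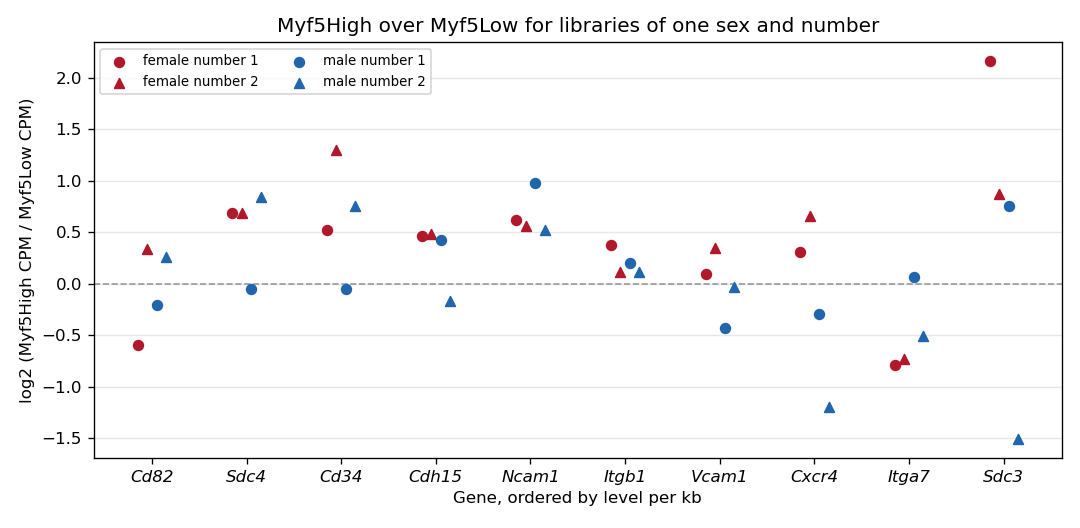
log2 ratio of Myf5High to Myf5Low CPM for the libraries of one sex and replicate number (red for females, blue for males, circles for number 1, triangles for number 2). Ncam1 and Itgb1 lie above 0 in all 4 pairs, while Cxcr4 lies above 0 in both female pairs and below 0 in both male pairs, from 0.66 down to -1.20.

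Females were compared with males over both fractions. By edgeR's test 0 of the 10 genes were called, where 1.65% of all tested genes were. At an unadjusted p under 0.05 there was 1, Cxcr4, against 13.9% of all tested genes, and DESeq2 called 1, also Cxcr4, where it called 3.16% of all tested genes. The sexes were fully apart for 0 of the 10, against 7.08% of all tested genes. The fractions of one sex and number may come from the same mice, which would leave 2 independent pools per sex. The median log2 difference of the 10 was 0.17, beside -0.015 over all tested genes.

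Cxcr4 (chromosome 1, 128588199 to 128592293) encodes the receptor of the chemokine CXCL12, which guides migrating muscle precursors and holds stem cells in their niche. Female libraries had 153 and 211 CPM in Myf5High and 123 and 134 CPM in Myf5Low. Male libraries had 78.8 and 61.5 CPM in Myf5High and 96.1 and 142 CPM in Myf5Low. Among Myf5High libraries the sexes were apart, and among Myf5Low libraries they overlapped. Cxcr4 averaged 155 ± 39.5 CPM over the female libraries against 94.5 ± 34.5 CPM over the male ones (SD, n = 4 each). Its log2 difference was 0.74 (SE 0.201, 95% interval 0.32 to 1.16) with an edgeR adjusted p of 0.0731, short of the threshold. Cxcr4 was called by DESeq2 (adjusted p 0.0258), with edgeR and no filter on low counts (adjusted p 0.0239) and without male Myf5High replicate 1 (log2 difference 0.84, edgeR adjusted p 0.0291). With the counts of a pool summed, the difference was 0.66 (edgeR adjusted p 0.122). The remaining 7 leave-one-out fits did not call Cxcr4 (edgeR adjusted p up to 0.323), nor did the additive model (edgeR adjusted p 0.151). Endothelial and immune cells also carry CXCR4. The endothelial sums were lower in females than in males, without overlap, with 9 of 9 genes on the lower side and Egfl7 called (log2 difference -1.06, edgeR adjusted p 0.00493), and the immune sums overlapped between the sexes. Their part in this value was not tested. The genes nearest to Cxcr4 were Smim4, Xpot and Paox, at root mean square differences of 0.13, 0.17 and 0.18, with a median of 0.71 over all tested genes.

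**Figure D4:**
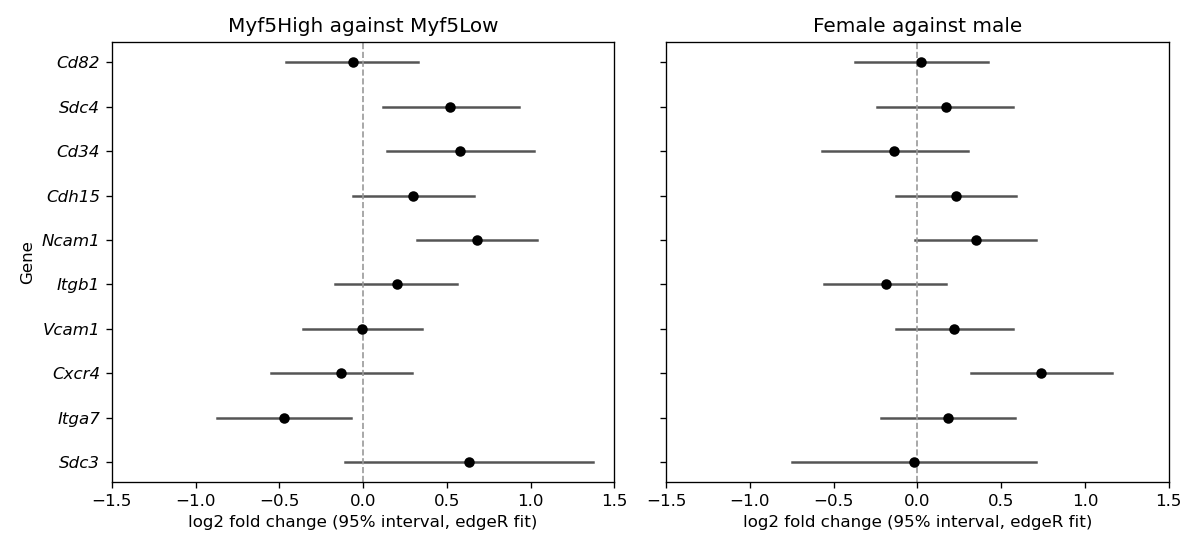
log2 fold change of the 10 genes with its 95% interval from the edgeR fit, for Myf5High against Myf5Low (left) and female against male (right). The intervals of Ncam1, Cd34, Sdc4 and Itga7 leave out 0 on the left and that of Cxcr4 on the right, before adjustment for the 11730 genes tested.

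Whether the difference between the fractions depended on sex was tested by the interaction of sex and fraction. By edgeR's test 0 of the 10 genes were called, as were 0% of all tested genes. At an unadjusted p under 0.05 there were 2 of the 10, Cxcr4 and Sdc3, against 4.54% of all tested genes, and DESeq2 called 0 of the 10 and 0.0171% of all tested genes. For Cxcr4 the log2 fold change between the fractions was 0.51 in females and -0.76 in males, an interaction of 1.26 (SE 0.402, 95% interval 0.42 to 2.11, edgeR adjusted p 1). The leave-one-out fits gave 0.25 to 0.71 in females, -1.0 to -0.46 in males and 0.96 to 1.5 for the interaction. For Sdc3 the interaction was 1.58 (SE 0.704, edgeR adjusted p 1). It was 0.99 without male Myf5High replicate 2 and 2.67 without male Myf5High replicate 1, the lowest and the highest of the leave-one-out fits. Within females 0 of the 10 genes were called by edgeR and 5 had an unadjusted p under 0.05, where 0.332% and 7.36% of all tested genes did, and DESeq2 called 0 of the 10 and 1.04% of the 10820 genes for which it gave an adjusted p. Within males 0 of the 10 were called by edgeR and 2 had an unadjusted p under 0.05, where 0.171% and 6.67% of all tested genes did, and DESeq2 called 0 of the 10 and 0.614% of all tested genes.

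The relatives, partners and ligands of the 10 proteins formed 10 lists with 109 genes, of which 95 were tested. Between the fractions edgeR called 2 of these (2.11%, both higher in Myf5High), beside 1.2% of all tested genes. Between the sexes it called 1 (1.05%, higher in females), beside 1.65% of all tested genes. The median log2 fold change of the 95 genes was -0.0062 between the fractions, beside -0.018 over all tested genes. Alcam, which encodes the immunoglobulin-type adhesion protein CD166, was higher in Myf5High, at 28 ± 7 against 6.74 ± 2.78 CPM (SD, n = 4 each), with an edgeR adjusted p of 0.00398 for a log2 ratio of 2.08 (SE 0.356). It was the 1 called gene of 15 tested in its list, its 4 Myf5High libraries (22 to 37.8 CPM) lay above its 4 Myf5Low libraries (3.58 to 10.3 CPM), and it remained called whichever of the 8 libraries was left out. Calcr, the calcitonin receptor gene of quiescent muscle stem cells, was also higher in Myf5High, at 98.8 ± 19.7 against 53.3 ± 6.32 CPM (log2 fold change 0.89, edgeR adjusted p 0.0389), but of the 8 leave-one-out fits only 1 called it, and its adjusted p there ran from 0.00784 to 0.191. With the pool as a replicate block Calcr was not called (log2 fold change 0.88, edgeR adjusted p 0.0711). Cd200 encodes a surface glycoprotein that restrains immune cells. It averaged 179 ± 28.8 CPM over the female libraries (136 to 198 CPM) against 74.9 ± 18 CPM over the male ones (57.2 to 97.5 CPM, SD with n = 4 each), so that the sexes were apart. Its log2 difference was 1.27 (SE 0.19) with an edgeR adjusted p of 0.00121, and it remained called whichever library was left out.

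Of the other syndecans, Sdc1 had 2.02 to 22.8 CPM and Sdc2 had 16.9 to 31 CPM across the libraries, with log2 fold changes between the fractions of 0.92 and 0.51 (edgeR adjusted p 0.642 and 0.619). Of the proteoglycan list 0 of 14 tested genes were called in either comparison, and of the integrin and adaptor list 0 of 20. Itga6, an alternative laminin-binding alpha subunit, had 19.1 to 69.4 CPM in Myf5High and 48.2 to 90.3 CPM in Myf5Low (log2 fold change -0.80, edgeR adjusted p 0.293). Of 8 laminin and matrix genes, 0 were called, and Lama2, which encodes a chain of the muscle laminin that integrin alpha 7 beta 1 binds, had 82.2 to 159 CPM. In the list of cadherins and catenins 0 of 7 were called. Cdh2, which encodes N-cadherin, had 0 to 3.23 CPM in Myf5High and 2.87 to 9.88 CPM in Myf5Low, and the catenin gene Ctnnb1 had 225 to 424 CPM. In the tetraspanin list 0 of 10 were called, with Cd9 at 12.2 to 42.7 CPM and Cd81 at 52.6 to 139 CPM. Ncam2, the close relative of Ncam1, had 0 to 3 counts per library and was not tested. In the sialomucin list 0 of 4 were called, and Podxl, a relative of Cd34, had 13.2 to 72.4 CPM. Of the CXCL12 axis 0 of 3 tested genes were called. The second CXCL12 receptor gene Ackr3 had 124 to 200 CPM in Myf5High and 80.5 to 102 CPM in Myf5Low without overlap (log2 fold change 0.71, edgeR adjusted p 0.0942), and Cxcl12 itself had 34.9 to 82.2 CPM. Of the markers by which other cells are excluded from sorts, 0 of 4 tested genes were called, and between the fractions all 4 were on the lower side in Myf5High, with a median log2 fold change of -0.72.

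The sequences just before the start sites were read for known promoter letters, among them the E-box CANNTG, to which Myf5 and its relatives bind. RefSeq's promoter windows for GRCm38.p6 matched 7 of the 10 genes and had no match for Ncam1, Vcam1 and Itga7. For each gene the 250 bases before the RefSeq start nearest to the GENCODE 5′ end were used. The start lay 699 bases inside the GENCODE gene for Sdc4, 408 for Cdh15 and 190 for Cd82, and at most 6 bases from its end for the remaining genes. For Cdh15 all 250 bases of the window, and for Cd82 190 of them, fell in GENCODE exons, so those bases are transcribed by that annotation. Exons of any gene on either strand were counted here. The window of Sdc4 also lay inside the GENCODE gene, with 0 bases in its exons. Of the 7 windows 1 held an E-box, that of Cdh15, with 3 matches, beside 66.2% of 32841 windows of this length. The GC box GGGCGG was in 6 of the 7, beside 32.7% of all windows, and the TATA box TATAAA was in 1, that of Cxcr4, beside 12.4%. The E-box form CAGCTG (13% of all windows) and the letters TGGGAA, the core of the motif of the Notch factor RBPJ (21.6%), were in 0 of the 7. Both strands were searched, and matches that overlap each other were counted separately. The windows of Cd34 (chr1:194938571-194938820 on the plus strand), Sdc4 (chr2:164443189-164443438 on the minus strand) and Cxcr4 (chr1:128592300-128592549 on the minus strand) are printed because these genes were the ones with an unadjusted p under 0.05 between the fractions or the sexes for which a window was matched. Each is written 5′ to 3′ on the strand of its gene, and capitals mark E-boxes, GC boxes and TATA boxes on either strand.
Cd34: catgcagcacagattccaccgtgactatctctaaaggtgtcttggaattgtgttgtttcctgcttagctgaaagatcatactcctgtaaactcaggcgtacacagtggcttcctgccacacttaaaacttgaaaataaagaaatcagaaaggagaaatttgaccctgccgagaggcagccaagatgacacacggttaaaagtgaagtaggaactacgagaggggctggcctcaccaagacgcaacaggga
Sdc4: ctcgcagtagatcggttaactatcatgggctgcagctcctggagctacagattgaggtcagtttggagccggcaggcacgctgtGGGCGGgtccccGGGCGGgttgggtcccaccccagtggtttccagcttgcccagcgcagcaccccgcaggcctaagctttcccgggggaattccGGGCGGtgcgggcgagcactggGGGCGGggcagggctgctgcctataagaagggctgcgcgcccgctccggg
Cxcr4: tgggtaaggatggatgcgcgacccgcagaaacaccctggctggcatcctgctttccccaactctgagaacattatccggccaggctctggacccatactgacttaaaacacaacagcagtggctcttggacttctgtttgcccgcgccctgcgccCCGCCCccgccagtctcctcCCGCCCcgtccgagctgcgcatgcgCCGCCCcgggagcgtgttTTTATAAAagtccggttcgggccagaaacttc
Cd34, the gene with the lowest GC content of the 7 (46.4%), held none of the motifs. Sdc4 held 4 GC boxes, which begin 166, 154, 72 and 50 bases before its start. Cxcr4 held 3 GC boxes, 95, 75 and 50 bases before its start, and its TATA letters are 2 overlapping matches, 1 on each strand, that begin 32 and 30 bases before it. The observed over expected frequency of CpG was 0.877 in the window of Sdc3, 0.838 in Cxcr4, 0.741 in Itgb1, 0.667 in Sdc4, 0.657 in Cd82, 0.446 in Cd34 and 0.263 in Cdh15, and its median over all windows was 0.374. A match of letters does not show that a factor binds there.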

How the data were processed

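The authors deposited a table of raw counts of reads on each Ensembl gene, and the submitters' processing notes name HTSeq and GRCm38. The aligner, annotation release and strand setting are not given in the sources used here. Reads outside any gene were 42% to 45.3% of tallied reads and ambiguous ones 0.248% to 0.296%, and both were left out. Of 27554 genes, 27518 matched GENCODE mouse release M21 (GRCm38), which gave symbols, coordinates and exon lengths. Groups were taken from the sample titles and columns from the descriptions. R 4.3.3 and edgeR 4.0.16 were used, with filterByExpr (minimum count 10, minimum total 15), TMM scaling, 1 mean per group, glmQLFit and glmQLFTest on all 8 libraries, two-sided. The common biological coefficient of variation was 0.36. Centred levels used log2 CPM with a prior count of 2. DESeq2 1.42.0 was an alternative, and the fits were tested on simulated data. A count of 3 was taken as the floor, which covers counting error only. The surface genes and all lists were chosen with earlier results of these data known. Named were the 10 genes, their fixed direct partners, and every partner gene called between the fractions or the sexes. For the 4 of the 10 with the largest SD of log2 CPM, the 3 nearest genes were named. Intervals of fold changes are 95% intervals from each fit.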

Additional observations from a re-analysis of the deposited data

Results flagged for a closer look

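In 40 sets of 4 libraries (each of the 10 genes in Myf5High, Myf5Low, females and males), 2 held a library far from the remaining 3 by Dixon's test, and chance alone gives about 1 in 20. Itgb1 had 417 CPM in male Myf5High replicate 1 and 337 to 341 CPM in the remaining Myf5High libraries, a gap of 0.948 of the whole range. Ncam1 had 684 CPM in male Myf5High replicate 2 and 961 to 990 CPM in the remaining Myf5High libraries, a gap of 0.903 of the whole range.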

How the results depend on the processing

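With no filter on low counts the genes called were 291 between the fractions, 477 between the sexes, 14 for the interaction, 167 within females and 111 within males, against 141, 194, 0, 39 and 20 with the filter. DESeq2 called 234, 371, 2, 112 and 72. Of the 10 surface genes, 1 was called between the fractions and 1 between the sexes under each of these settings, and 1 between the fractions in the additive model; where a gene was called it was Ncam1 between the fractions and Cxcr4 between the sexes. Leaving out each library in turn gave 82 to 243 genes called between the fractions, 82 to 558 between the sexes, 0 to 8 for the interaction, 9 to 117 within females and 8 to 74 within males. Of the 10 surface genes 0 to 1 were then called between the fractions and between the sexes, and 0 in the remaining comparisons. Leaving out 1 library leaves a group with 1 library, which is assumed to vary like the other groups. The cause of these shifts was not tested.

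Directions turned only for fold changes that were not called. Vcam1 between the fractions was 0.0015 without Gm42418, a transcript that holds ribosomal RNA reads, Pax7 was -0.003 with a filter at a mean of 50 counts, and Sdc3 between the sexes was 0.072 with the counts summed per pool. Without single libraries, the log2 fold change between the fractions ran from -0.078 to 0.063 for Vcam1, -0.069 to 0.094 for Pax7, -0.20 to 0.11 for Cd82 and -0.25 to 0.026 for Cxcr4. Between the sexes it ran from -0.42 to 0.06 for Cd34, -0.17 to 0.16 for Cd82 and -0.32 to 0.53 for Sdc3. Within females it ran from -0.45 to 0.19 for Cd82, and within males from -0.17 to 0.22 for Cd82, -0.063 to 0.30 for Cdh15, -0.54 to 0.087 for Itga7 and -1.24 to 0.43 for Sdc3. The interaction ran from -0.50 to 0.14 for Cd82, -0.068 to 0.24 for Itgb1, -0.40 to 0.09 for Ncam1 and -0.068 to 0.64 for Sdc4.

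The pool labels of Myf5High and Myf5Low libraries share a sex letter and a number, but the labels do not say that these came from the same mice, and the deviations of same-numbered libraries from their group means correlated across genes at 0.0275 in females and -0.000273 in males. With the pool as a replicate block 136 genes were called between the fractions, 125 of them shared with the fit without it, and 0 of the 10 surface genes. Ncam1 then had a log2 fold change of 0.67 (edgeR adjusted p 0.147), and Calcr, with 0.88 (edgeR adjusted p 0.0711), was no longer called.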
